A study of Mus musculus with 8 samples.

Results

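The genes described here are 10 genes of major histocompatibility complex (MHC) antigen presentation, chosen by name: *H2-Aa*, *H2-Ab1*, *H2-Eb1*, *Cd74*, *H2-D1*, *H2-K1*, *B2m*, *Tap1*, *Tap2* and *Tapbp*. All 10 of these 10 genes are among the 12551 genes counted by RNA sequencing of whole tibialis anterior (TA) muscle, a fast-twitch muscle of the lower leg. WT mice (n = 4, Klotho wt/wt) were compared with KL-/- mice (n = 4, Klotho null/null), all male and 7 weeks of age, without any further treatment. Both genotypes came from crosses of heterozygous mice of a mixed background. The mutation is inherited, so Klotho is lost in the whole animal and not in muscle alone, and the H2 haplotypes of the mice are not given in the sources used here. The H2 chain genes are polymorphic and the reference genome holds 1 haplotype of them, so haplotypes that differ between samples could change the counts of *H2-Aa*, *H2-Ab1*, *H2-Eb1*, *H2-D1* and *H2-K1*, which was not tested. Klotho itself is not among the counted genes, so the genotype of each sample is taken from its label and could not be checked in the counts. The authors genotyped their mice by PCR and could not detect Klotho protein or mRNA in KL-/- muscle.

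MHC class I and class II molecules carry peptides to the cell surface, where T cells inspect them. Class I molecules, present on nearly all nucleated cells, consist of a heavy chain such as H2-K or H2-D and the small subunit β2-microglobulin, and receive peptides that the TAP transporter pumps into the endoplasmic reticulum. Class II molecules are made of an α and a β chain, are assembled with the invariant chain Cd74, and are found chiefly on macrophages, dendritic cells and B cells, so that in muscle their transcripts are known mainly from resident immune cells.

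Libraries held 20860262 to 26501093 counts in WT and 22061526 to 29273758 in KL-/- muscle. Levels are CPM, counts relative to library size, with library sizes scaled by edgeR's TMM factors, and on this scale 3 counts correspond to 0.105 to 0.143 CPM. Fold changes are KL-/- over WT on the log2 scale with a standard error (SE), and the false discovery rate (FDR) is the adjusted p of edgeR's quasi-likelihood test over all 12551 genes. A gene passed at an FDR under 0.05. The labels give a different batch date for KL-/- replicate 3, and this date cannot be told apart from the sample itself. The labels give each of the 8 samples its own number, and the authors write of TA muscles from WT and KL-/- mice. Neither states that each sample came from a separate animal. The p-values thus set the genotype difference against the spread between samples, whose source was not tested. As a check of the tissue, all 7 skeletal muscle markers were counted, and together they made up 119797 to 179222 CPM per sample.

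The class I and class II genes share a promoter module: an X box with a CRE-like element, bound by RFX and CREB factors, and a Y box, which is an inverted CCAAT sequence bound by NF-Y. The coactivators CIITA (class II) and NLRC5 (class I) act through factors bound there. To show this module, the 150 bases before the annotated start of 5 members are printed, 1 α and 1 β chain of class II, both class I heavy chains and β2-microglobulin. The sequences are those of RefSeq on GRCm38.p6, written in the direction of transcription, with capitals marking the letters ATTGG (Y box core), TGACG (CRE-like core) and GAAANNGAAA (ISRE-like) on either strand. The regions are chr17:34287824-34287973 (minus strand) for *H2-Aa*, chr17:34305717-34305866 (plus) for *H2-Eb1*, chr17:35262944-35263093 (plus) for *H2-D1*, chr17:34000334-34000483 (minus, the more downstream of its annotated starts) for *H2-K1* and chr2:122147537-122147686 (plus) for *B2m*.
H2-Aa: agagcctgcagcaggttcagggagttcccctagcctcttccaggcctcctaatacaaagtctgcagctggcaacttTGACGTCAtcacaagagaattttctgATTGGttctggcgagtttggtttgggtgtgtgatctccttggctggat
H2-Eb1: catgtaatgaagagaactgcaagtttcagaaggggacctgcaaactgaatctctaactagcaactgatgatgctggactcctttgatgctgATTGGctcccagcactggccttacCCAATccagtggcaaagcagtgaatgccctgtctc
H2-D1: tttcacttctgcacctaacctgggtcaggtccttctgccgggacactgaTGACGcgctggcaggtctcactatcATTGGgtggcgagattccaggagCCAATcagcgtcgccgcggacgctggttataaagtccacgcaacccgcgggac
H2-K1: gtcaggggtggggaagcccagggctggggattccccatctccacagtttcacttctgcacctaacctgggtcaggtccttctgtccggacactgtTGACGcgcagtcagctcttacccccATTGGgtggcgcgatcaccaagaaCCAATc
B2m: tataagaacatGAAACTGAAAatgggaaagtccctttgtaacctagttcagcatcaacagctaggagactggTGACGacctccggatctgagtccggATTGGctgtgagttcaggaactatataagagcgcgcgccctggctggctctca

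A RefSeq promoter window, from 250 bases before to 50 bases after the start, was matched for 7 of the 10 members; *H2-Ab1*, *Cd74* and *Tap2* had no entry. ATTGG occurred on either strand in all 7, against 37.4% of 32851 RefSeq windows of the same 300 bases. TGACG occurred in 5 of 7 (*H2-Aa*, *H2-D1*, *H2-K1*, *B2m* and *Tap1*), against 20.8% of all windows. In 4 of these, TGACG lay 25 or 26 bases before ATTGG on the gene's own strand, first base to first base, as the sequences above show, while *H2-Eb1* and the unprinted windows of *Tap1* and *Tapbp* do not hold cores so spaced. This spacing was noticed after the sequences had been seen. Searched for on either strand, it is held by 0.164% of all windows, 54 in number and including those of these members. In *H2-Aa* the cores started 74 and 48 bases before the start, and in *B2m* 78 and 53 bases before it. The letters of TGACG were not found in the window of *H2-Eb1*, whose ATTGG started 59 bases before the start. A match to GAAANNGAAA, an ISRE-like form bound by interferon-regulated factors, was found in *B2m* only, against 3.44% of all windows. Other forms of this element were not searched for, so the other windows may hold it in different letters. The GAS-like letters TTCNNNGAA, the form bound by STAT factors, were in none of the 7 windows and in 8.3% of all windows. TGACG and its reverse complement overlap by 2 bases in *H2-Aa*, and a match describes letters, not binding.

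**Figure D1:**
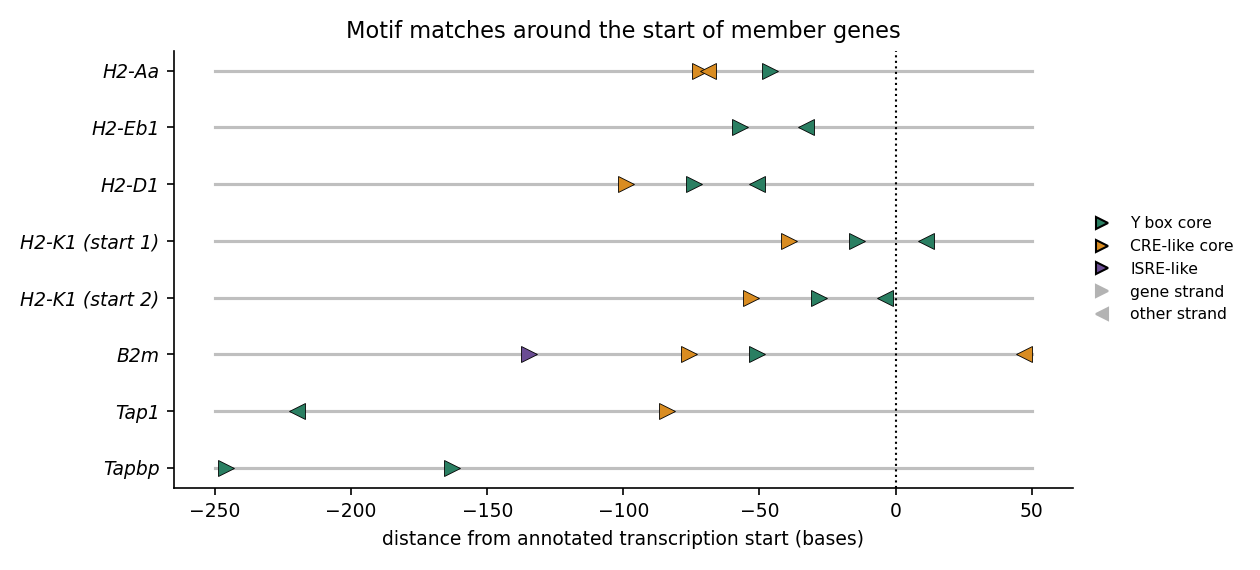
Matches to the Y box core, the CRE-like core and the ISRE-like letters in the promoter windows of 7 members, drawn by distance in bases from the annotated start (dotted line), with both annotated starts of *H2-K1*. Arrowheads point along the gene's strand or the other strand. In *H2-Aa*, *H2-D1*, *H2-K1* and *B2m* a CRE-like core lies 25 or 26 bases before a Y box core.

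Transcripts of all 10 members were lower on average in KL-/- muscle, while 52.4% of all genes had a negative log2 fold change. At an FDR under 0.05, 7 of the 10 fell, while 6.67% of all genes tested fell and 7.35% rose. Genotypes did not overlap in 9 of 10, with all KL-/- samples below all WT samples, as was so for 9.47% of all genes. The median log2 fold change was −1.47 over the 4 class II genes, −0.44 over the 6 class I genes and −0.016 over all genes, and the difference between the 2 groups was not tested. In bulk muscle, fewer cells of a type and less RNA per cell cannot be told apart.

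**Figure D2:**
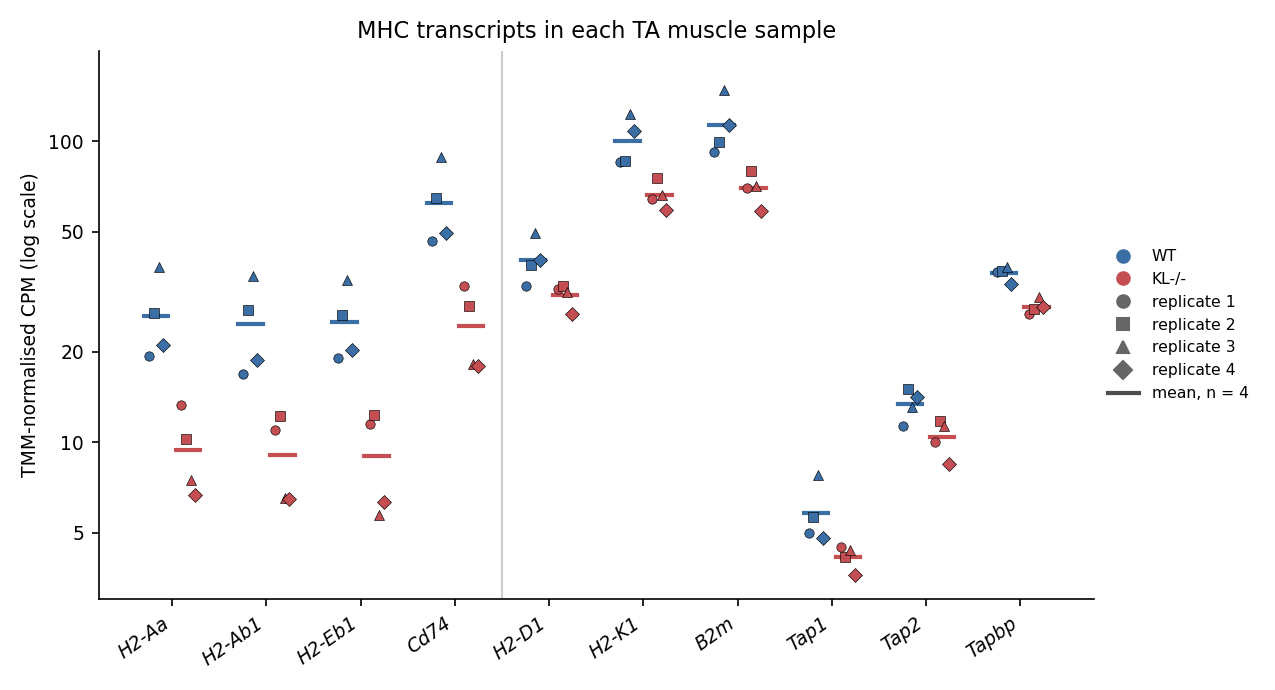
TMM-normalised CPM of the 10 members in each of the 4 WT and 4 KL-/- TA muscles, on a log axis. Points are samples, shaped by replicate, and bars are means (n = 4). In the 4 class II genes on the left all KL-/- samples lie below all WT samples, and *Tap2* is the member whose genotypes overlap.

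Among the class II chains, *H2-Aa* (chromosome 17, 34282751 to 34287771 of mm10) encodes the α chain of the I-A molecule. It was at 19.4, 26.9, 38.1 and 20.98 CPM in WT replicates 1 to 4 and at 13.3, 10.2, 7.46 and 6.67 CPM in KL-/- replicates 1 to 4. The highest KL-/- sample, replicate 1, lay below the lowest WT sample, also replicate 1. The mean fell from 26.3 ± 8.49 to 9.41 ± 3.00 CPM (mean ± SD, n = 4), which is 2.80-fold lower, or −1.48 on the log2 scale (SE 0.26, FDR = 0.00911 by edgeR). These values rest on 475 to 1000 counts per WT library and 177 to 381 per KL-/- library.

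*H2-Ab1* (chromosome 17, 34263227 to 34269418) encodes the β chain that pairs with it. WT samples were at 16.8, 27.4, 35.5 and 18.8 CPM and KL-/- samples at 10.98, 12.2, 6.51 and 6.45 CPM. Here too the genotypes were separate, with KL-/- replicates 1 and 2 the nearest to WT. From 24.6 ± 8.60 CPM the mean fell to 9.04 ± 3.00 CPM (mean ± SD, n = 4), or −1.45 on the log2 scale (SE 0.28, FDR = 0.0131 by edgeR). Relative to length, *H2-Aa* was 1.21 ± 0.0834 times *H2-Ab1* in WT and 1.18 ± 0.183 times in KL-/- muscle (two-sided exact permutation test, p = 0.8, adjusted p = 0.8 over 6 ratios), a difference within the spread between samples.

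The β chain of the second class II molecule, I-E, is encoded by *H2-Eb1* (chromosome 17, 34305867 to 34316674). Its levels were 19.1, 26.5, 34.5 and 20.3 CPM in WT and 11.5, 12.3, 5.72 and 6.33 in KL-/- muscle. WT replicate 3 was the highest and KL-/- replicate 3 the lowest of the 8. A mean of 25.1 ± 7.08 CPM fell to 8.97 ± 3.42 CPM (mean ± SD, n = 4), or −1.49 on the log2 scale (SE 0.28, FDR = 0.0112 by edgeR). *H2-Ea*, the symbol of its α partner, is not among the counted genes, and other symbols for it were not looked up.

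*Cd74* (chromosome 18, 60803849 to 60812652), the invariant chain, blocks the peptide groove and guides new class II molecules to endosomes. It had the highest counts of the class II group, at 46.5, 65.0, 88.7 and 49.7 CPM in WT and 33.0, 28.3, 18.2 and 17.9 in KL-/- muscle. No KL-/- sample reached the lowest WT sample. The mean decreased from 62.5 ± 19.2 to 24.4 ± 7.53 CPM (SD, n = 4), with a log2 fold change of −1.36 (SE 0.25, FDR = 0.0110 by edgeR). *Cd74* lies on another chromosome than the H2 genes. Its ratio to *H2-Ab1* per length was 2.17 ± 0.146 in WT and 2.30 ± 0.243 in KL-/- muscle (exact permutation test, p = 0.429, adjusted p = 0.643). For *H2-Eb1* over *H2-Ab1* the ratios were 0.742 ± 0.0597 and 0.700 ± 0.0515 (exact permutation test, p = 0.371, adjusted p = 0.643).

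Summed over the 4 class II genes, WT replicates 1 to 4 were at 102, 146, 197 and 110 CPM and KL-/- replicates at 68.8, 63.1, 37.9 and 37.3 CPM. Fewer than 1% of all genes had a more negative log2 fold change than each of these 4, between 0.550% for *H2-Eb1* and 0.813% for *Cd74*. Without WT replicate 3, the highest sample, the 4 still fell, with a median log2 fold change of −1.23. With KL-/- replicate 3, the library of the other batch date, left out it was −1.32, the 4 genes passed there as well, and 7 of all 10 members did.

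Of the class I heavy chains, 1 of 2 passed. *H2-K1* (chromosome 17, 33996012 to 34000333) was at 85.4, 85.8, 123 and 108 CPM in WT and 64.3, 75.5, 66.2 and 59.0 in KL-/- muscle. The nearest pair, WT replicate 1 and KL-/- replicate 2, was still apart. Its mean fell from 101 ± 18.4 to 66.2 ± 6.89 CPM (mean ± SD, n = 4), or −0.60 on the log2 scale (SE 0.13, FDR = 0.0170 by edgeR). Without KL-/- replicate 4 it was −0.55 and no longer passed (FDR = 0.0536).

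*H2-D1* (chromosome 17, 35263094 to 35267497), the other classical heavy chain, was at 33.1, 38.9, 49.5 and 40.2 CPM in WT and 32.2, 33.0, 31.5 and 26.8 in KL-/- muscle. WT replicate 1 and KL-/- replicate 2 differed by less than 1%, while the genotypes still did not overlap. With means of 40.4 ± 6.80 and 30.9 ± 2.80 CPM (SD, n = 4), the log2 fold change of −0.39 (SE 0.12) did not pass (FDR = 0.0579 by edgeR). The ratio of *H2-K1* to *H2-D1* per length was 2.62 ± 0.214 in WT and 2.26 ± 0.134 in KL-/- muscle (exact permutation test, p = 0.0571, adjusted p = 0.171). Heavy chain genes are alike in sequence: 12.8% of the 50-base words of *H2-D1* transcripts and 9.63% of those of *H2-K1* also occur in transcripts of other genes, chiefly other H2 genes, so reads there could be split between them.

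*B2m* (chromosome 2, 122147687 to 122153082), the light chain of every class I molecule, was at 92.4, 99.5, 149 and 113 CPM in WT and 69.98, 79.7, 71.0 and 58.8 in KL-/- muscle. Its genotypes were separate and WT replicate 3 was again the highest. The mean fell from 113 ± 25.004 to 69.9 ± 8.59 CPM (mean ± SD, n = 4), or −0.70 on the log2 scale (SE 0.15, FDR = 0.0171 by edgeR), the most negative of the 6 class I genes. This too did not pass without KL-/- replicate 4 (−0.63, FDR = 0.0519). Relative to the summed heavy chains per length, *B2m* was 1.56 ± 0.0817 in WT and 1.40 ± 0.0433 in KL-/- muscle, without overlap (exact permutation test, p = 0.0286, the smallest p possible with 4 against 4, and adjusted p = 0.171).

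TAP moves peptides across the membrane of the endoplasmic reticulum as a dimer of Tap1 and Tap2. *Tap1* (chromosome 17, 34187556 to 34197225) was at 4.98, 5.64, 7.78 and 4.81 CPM in WT and 4.46, 4.15, 4.39 and 3.62 in KL-/- muscle. The samples were separate by genotype, but WT replicate 3 stood above the other 3 WT samples and the log2 fold change of −0.48 (SE 0.17) did not pass (FDR = 0.0854 by edgeR). *Tap2* (chromosome 17, 34204479 to 34216321) was at 11.3, 15.0, 13.1 and 14.2 CPM in WT and 10.04, 11.8, 11.4 and 8.44 in KL-/- muscle. Its genotypes overlapped, since KL-/- replicates 2 and 3 lay above WT replicate 1, and its log2 fold change was −0.37 (SE 0.13, FDR = 0.0830). Their ratio per length was 0.369 ± 0.0953 in WT and 0.340 ± 0.0352 in KL-/- muscle (exact permutation test, p = 0.743, adjusted p = 0.8).

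*Tapbp* (chromosome 17, 33919478 to 33929290) encodes tapasin, which holds empty class I molecules next to TAP. It was at 36.8, 37.2, 38.1 and 33.5 CPM in WT and 26.7, 27.7, 30.5 and 28.0 in KL-/- muscle. Samples lay close together within each genotype, and the genotypes were apart. The change from 36.4 ± 2.02 to 28.2 ± 1.61 CPM (SD, n = 4) passed with a log2 fold change of −0.37 (SE 0.068, FDR = 0.0107 by edgeR), the same size as that of *Tap2*. An antisense gene, *Gm19412*, overlaps 24.9% of the exon bases of *Tapbp*, and antisense genes overlap *Tap2* (*Gm15821*, 14.1%). Whether the counting used strand is not given in the sources used here, so reads of these pairs cannot be told apart.

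Levels can be compared between genes per kilobase of counted length. In WT muscle *B2m* stood first at 132 ± 29.1 CPM per kilobase, then *H2-K1* at 61.1 ± 11.2, *Cd74* at 44.2 ± 13.6, *H2-Aa* at 24.6 ± 7.94, *H2-D1* at 23.3 ± 3.92, *H2-Ab1* at 20.7 ± 7.21, *H2-Eb1* at 15.0 ± 4.24, *Tapbp* at 13.2 ± 0.734, *Tap2* at 5.38 ± 0.645 and *Tap1* at 1.97 ± 0.463 (SD, n = 4). Neighbours from *H2-K1* down to *Tapbp* overlapped in their sample ranges, whereas *B2m*, *Tap2* and *Tap1* did not overlap their neighbours. In KL-/- muscle the order was *B2m* (81.4 CPM per kilobase), *H2-K1* (40.2), *H2-D1* (17.8), *Cd74* (17.2), *Tapbp* (10.3), *H2-Aa* (8.80), *H2-Ab1* (7.58), *H2-Eb1* (5.37), *Tap2* (4.18) and *Tap1* (1.41). *Cd74* stood level with *H2-D1* there, and the class II chains stood next to *Tapbp* and *Tap2*, with overlapping ranges.

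Samples of a genotype also differed among themselves, and the class II genes did so together. WT replicate 3 was 0.50 to 0.59 above the WT mean in log2 CPM for the 4 class II genes, and it was the highest WT sample for 9 of the 10 members, *Tap2* being the exception. In KL-/- muscle, replicates 1 and 2 were above and replicates 3 and 4 below the genotype mean for each class II gene, a split that the class I genes did not share. After removal of genotype means, correlations over the 8 samples were 0.914 to 0.990 between class II genes and 0.870 to 0.960 among *H2-D1*, *H2-K1* and *B2m*. The class II genes also correlated at 0.531 to 0.799 with *H2-D1*, *H2-K1* and *B2m*. With *Tap1* they correlated at 0.616 to 0.812 and with *Tap2* at 0.314 to 0.437. *Tapbp* correlated at −0.19 to 0.49 with the other members. These coefficients describe 8 libraries that share their scaling, and no test was made.

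**Figure D3:**
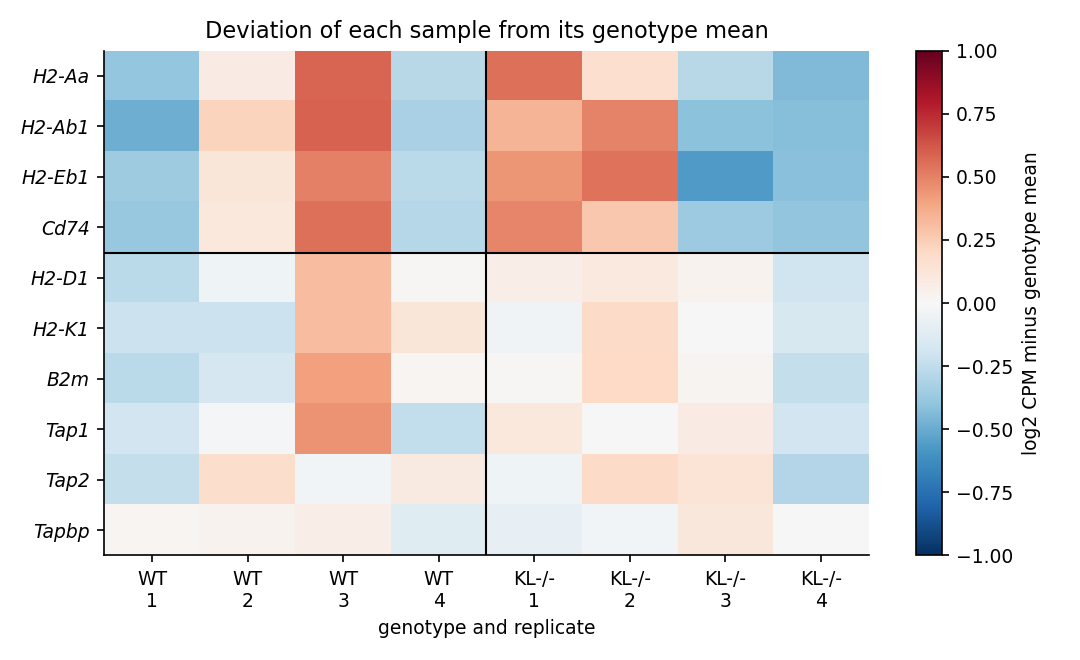
Log2 CPM of each member in each sample minus the mean of its genotype, as colour (red above, blue below). WT replicate 3 is above its genotype mean for the 4 class II genes by 0.50 to 0.59, and KL-/- replicates 1 and 2 are above and 3 and 4 below theirs in the same genes.

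Markers of immune cells were also lower on average in KL-/- muscle. The 7 pan-leukocyte markers summed to 15.4 to 31.8 CPM in WT and 8.04 to 14.3 in KL-/- muscle, without overlap. All 7 had negative log2 fold changes with a median of −0.93, and *Coro1a* and *Laptm5* passed. Of all genes, 52.4% had a negative log2 fold change and 6.67% fell at an FDR under 0.05. Of 12 macrophage markers 11 were counted, with a median of −0.88, 2 that fell (*Adgre1* and *Itgam*) and summed levels of 70.5 to 144 CPM in WT and 52.8 to 89.0 in KL-/- muscle, which overlapped. The log2 fold changes of these 11 were negative in 9 and ranged from −1.52 for *Adgre1* (FDR = 0.0365 by edgeR) to 0.34 for *Mertk* (FDR = 0.169). Of 8 dendritic cell markers *Zbtb46* alone was counted (log2 fold change −0.19, FDR = 0.618). None of 6 B cell markers and none of 7 T cell markers, *Ms4a1*, *Cd3e*, *Cd4* and *Cd8a* among them, is in the table, which holds expressed genes only.

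Ratios of the class II sum to these marker sums were lower in KL-/- samples, but not every marker gave such a ratio. The class II sum was 6.03 to 6.79 times the pan-leukocyte sum in WT samples and 3.84 to 4.82 times in KL-/- samples. Against the macrophage sum it was 1.30 to 1.56 times in WT and 0.699 to 0.775 times in KL-/- samples, with little spread in either genotype. The most abundant macrophage markers, *Lyz2* at 31.7 ± 9.29 CPM in WT and 19.6 ± 5.41 in KL-/- muscle and *Mrc1* at 16.9 ± 7.58 and 18.8 ± 4.65 CPM, weigh most in that sum. The log2 fold change of *Adgre1*, −1.52 (SE 0.40), was no smaller in size than those of the class II genes (−1.49 to −1.36), and that of *Itgam* was −1.16 (SE 0.28). KL-/- replicate 1, the KL-/- sample with the highest macrophage sum (89.0 CPM), had 68.8 CPM of class II transcripts. WT replicate 4, the WT sample with the lowest macrophage sum (70.5 CPM), had 110 CPM of them. Its ratio of 1.56 was the highest in WT, the other WT samples being at 1.30 to 1.37. Against the summed *H2-D1*, *H2-K1* and *B2m* levels the class II sum was 0.420 to 0.650 in WT and 0.225 to 0.413 in KL-/- samples. Markers of other cell types stand beside these values. All 7 of 7 endothelial markers were counted, with a median log2 fold change of −0.22 and *Kdr* passing. They summed to 511 to 712 CPM in WT and 491 to 517 in KL-/- muscle. The 6 of 6 fibro-adipogenic markers had a median of −1.24, with 732 to 2879 CPM in WT against 374 to 1275 in KL-/- muscle. Of them 3 fell (*Dpt*, *Dcn* and *Lum*), against 6.67% of all genes. The 7 skeletal muscle markers summed to 119797 to 140178 CPM in WT and 141258 to 179222 in KL-/- muscle. The part of these cell types in the lower MHC transcripts was not tested.

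**Figure D4:**
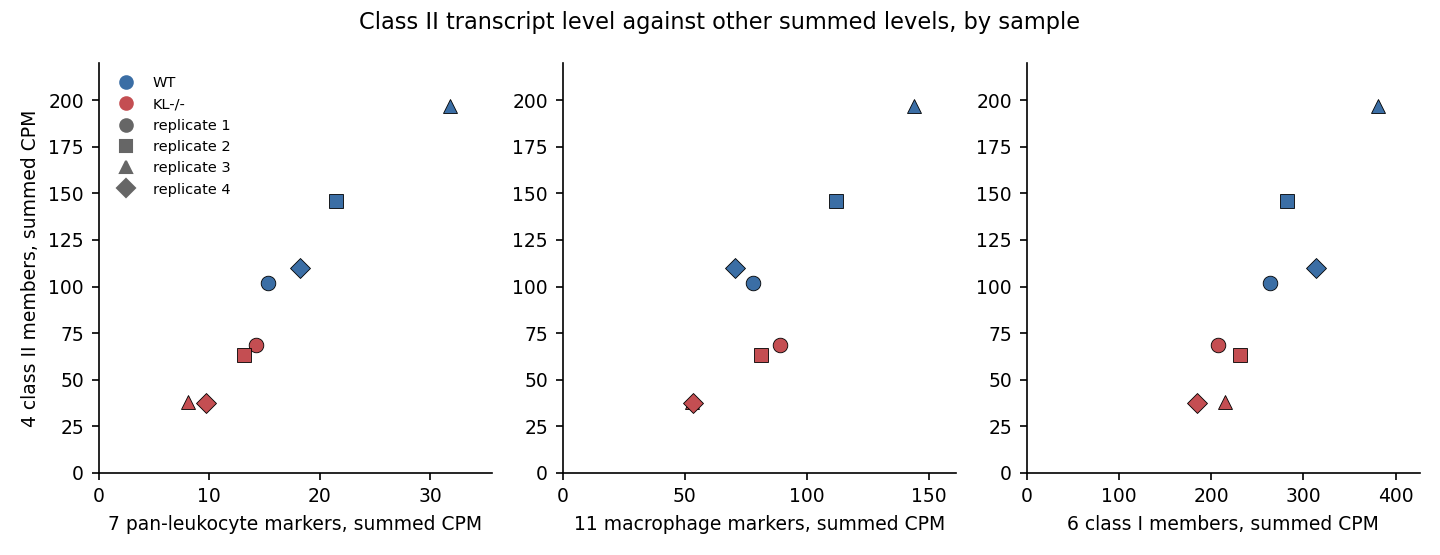
Summed CPM of the 4 class II genes in each sample against the summed CPM of 7 pan-leukocyte markers, of 11 macrophage markers and of the 6 class I members. Points are samples, coloured by genotype and shaped by replicate, and KL-/- replicates 3 and 4 nearly coincide in the middle panel. KL-/- samples are at 37.3 to 68.8 CPM and WT samples at 102 to 197 CPM, and in the middle panel both genotypes share a range of macrophage marker levels.

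Other genes of the class II route were mixed. The 18 symbols listed hold *March1* and *March8* also under the newer symbols *Marchf1* and *Marchf8*. Of the 18 symbols, 10 were counted, 3 fell, 1 rose and the median log2 fold change was −0.19. Of all genes 6.67% fell and 7.35% rose, so 1 that rose among 10 is near the share of all genes. The subunits of H2-M, which exchanges the invariant chain fragment for peptide, fell. *H2-DMa* went from 3.17 ± 0.615 to 1.33 ± 0.271 CPM (log2 fold change −1.26, SE 0.21, FDR = 0.00738 by edgeR) and *H2-DMb1* from 2.04 ± 0.634 to 0.720 ± 0.172 CPM (−1.51, SE 0.28, FDR = 0.0110). The endosomal proteases, which are used in many other cell types, went both ways: *Ctsd* fell from 806 ± 62.5 to 662 ± 10.6 CPM (−0.28, FDR = 0.0282), *Ctsl* rose from 109 ± 6.91 to 149 ± 8.07 CPM (0.45, FDR = 0.00498), and *Ctsb* did not pass (0.052, FDR = 0.546). *Ctss*, the cathepsin known for cutting the invariant chain, was at 4.399 ± 1.43 and 2.47 ± 0.741 CPM with a log2 fold change of −0.83 (FDR = 0.0748).

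In the class I route all 10 listed genes were counted, 4 fell, against 6.67% of all genes, and the median log2 fold change was −0.27. *Tapbpl*, a peptide editor related to tapasin, fell from 5.18 ± 0.334 to 2.96 ± 0.401 CPM (log2 fold change −0.81, SE 0.13, FDR = 0.00696 by edgeR). *Psmb9*, a catalytic subunit of the immunoproteasome, fell from 3.82 ± 0.728 to 2.15 ± 0.346 CPM (−0.84, SE 0.18, FDR = 0.0185), and some of its exon bases overlap *Tap1* on the other strand. *Psme1*, a subunit of the proteasome activator, had a log2 fold change of −0.29 (FDR = 0.0369) and *Erap1*, which trims peptides, of −0.30 (FDR = 0.0148). The general chaperones of the endoplasmic reticulum did not pass: *Calr* was at 0.030 (FDR = 0.748), *Canx* at 0.15 (FDR = 0.131) and *Pdia3* at −0.25 (FDR = 0.128) on the log2 scale.

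Of 17 other class I or class I-like chains 10 were counted, with a median log2 fold change of −0.38. Of these 2 fell, against 6.67% of all genes. *H2-Q4* fell from 25.8 ± 6.43 to 16.6 ± 2.58 CPM (log2 fold change −0.64, SE 0.17, FDR = 0.0382 by edgeR), although its genotypes overlapped. *Hfe*, which takes part in iron sensing, fell from 22.7 ± 1.60 to 16.5 ± 2.82 CPM (−0.46, FDR = 0.0308). *Fcgrt*, the heavy chain of the neonatal Fc receptor (−0.14, FDR = 0.503), and *Mr1*, which presents vitamin metabolites (−0.26, FDR = 0.277), did not pass.

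**Figure D5:**
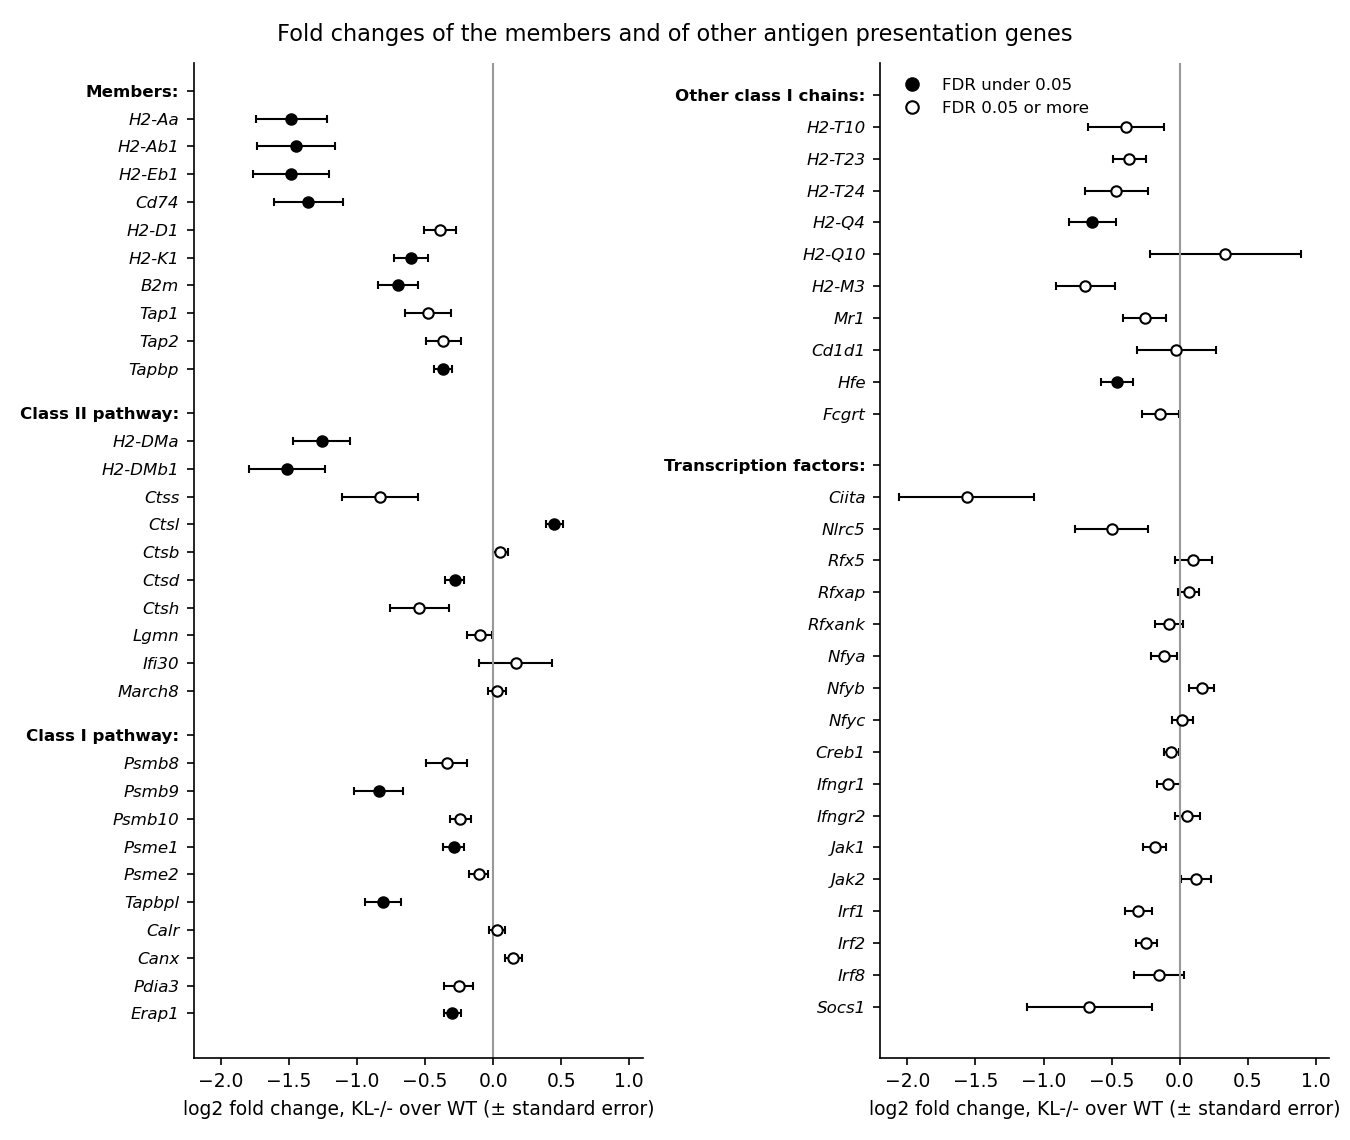
Log2 fold changes (KL-/- over WT) of the 10 members and of counted genes of 4 lists, with bars of 1 standard error. Filled points have an FDR under 0.05 by edgeR's quasi-likelihood test. The 4 class II members, *H2-DMa* and *H2-DMb1* lie between −1.51 and −1.26, and *Ctsl* is the filled point above 0.

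The factors that drive these genes are regulated at several levels, and their transcripts give only a part of it. *Ciita* was at 0.988 ± 0.287 CPM in WT and 0.326 ± 0.269 in KL-/- muscle, on 16 to 30 and 2 to 18 counts per library. All KL-/- samples were below all WT samples, but at this depth the log2 fold change of −1.56 had an SE of 0.50 and did not pass (FDR = 0.0640 by edgeR). Each gene in the table had at least 0.603 CPM, relative to library totals, in 4 or more samples. KL-/- replicates 2 to 4 were at 0.477, 0.124 and 0.0754 CPM for *Ciita*. A low gene can thus enter the table through its WT samples, and this separation is a description only. *Nlrc5* was at 3.62 ± 1.11 and 2.60 ± 0.814 CPM, with overlap and a log2 fold change of −0.50 (SE 0.27, FDR = 0.230). All 18 listed factors and interferon signalling genes were counted, and the median log2 fold change was −0.10. *Jak1*, *Ifngr2* and *Jak2*, the most abundant of the list, had log2 fold changes of −0.18, 0.058 and 0.12 and did not pass (FDR = 0.168, 0.695 and 0.476). Neither the RFX subunits, with *Rfx5* at 0.10 (FDR = 0.638), nor the NF-Y subunits nor *Creb1* passed.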

How the data were processed

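Libraries of 8 TA muscles were made from 100 ng of RNA each. The labels call it total RNA, and the methods call it RNA and the sequencing mRNA sequencing. The authors mapped the reads with STAR (genome build mm10), dropped poorly mapped reads, used featureCounts to obtain a count for each gene and deposited these raw counts. The table held expressed genes only. The annotation release and the strand setting are not given in the sources used here. Gene positions and lengths are those deposited with the counts.

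The counts were scaled with TMM factors and tested with the quasi-likelihood test of edgeR 4.0.16 (R 4.3.3), with genotype as the only term. P-values over 12551 genes were adjusted after Benjamini and Hochberg. The default filter on low counts kept every gene. Standard errors were taken from the test statistic, and the scripts were tested on simulated data. Ratios were compared by exact permutation, two-sided, over the 70 ways to relabel the samples. Shared 50-base words and exon overlaps were taken from GENCODE M21. No libraries of a genotype were duplicates. Alternatives were no filter, library totals, RLE factors, DESeq2 1.42.0, limma-voom (limma 3.58.1), the likelihood ratio test, at least 10 counts in each library, a block for the replicate number, and each sample left out.

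The members and gene lists were chosen with earlier results of these data known. Named are all members, *Ciita*, *Nlrc5*, list genes with an FDR under 0.05, the 3 most abundant of each pathway list and the 5 genes most like the members. *Ctss*, *Rfx5*, *Lyz2*, *Mrc1*, *Mertk* and *Zbtb46* were named after their values had been seen. Results of 1 listed gene are not reported here, although its list median includes it. The floor of 3 counts reflects counting depth only, whereas the standard errors and SDs include the spread between samples.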

Additional observations from a re-analysis of the deposited data

How the results depend on the processing

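All 10 members kept a negative log2 fold change under the 16 alternatives, 1 of which, no filter on low counts, equals the main analysis because the filter kept every gene. The class II median ranged from −1.60 to −1.23 and the class I median from −0.55 to −0.36, and the 4 class II genes and *Tapbp* passed in each of the 16. Of the members, 7 passed in the main analysis, 5 to 8 with 1 sample left out and 6 to 10 otherwise, with 8 by DESeq2 and 10 with library totals. Over all genes, 1759 passed, against 762 to 2755 with 1 sample left out, lowest without KL-/- replicate 3 (762), WT replicate 3 (775), KL-/- replicate 4 (778) and WT replicate 2 (780) and highest without KL-/- replicate 2 (2755). The cause was not tested. With the replicate number as a block 671 genes and 6 members passed, *H2-K1* being lost (FDR = 0.0508 by edgeR). Same-numbered samples did not deviate together (correlations −0.15, 0.18, −0.37 and 0.017), and whether they shared an origin was not tested. Library totals in place of TMM factors moved the median of all genes from −0.016 to −0.13 and the share of higher genes among 2624 calls from 52.4% to 18.8%. *H2-D1* passed with library totals, DESeq2, the likelihood ratio test and without WT replicate 1, and *Tap1* and *Tap2* with library totals only. Depth limits *Ciita*, with 2 to 30 counts per library, and *H2-DMb1*, with 14 to 76.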

Other observations

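Molecules that accompany antigen presentation were mostly at low levels. Of 6 listed costimulatory and inhibitory molecules 4 were counted, with a median log2 fold change of −0.35, and *Cd80* and *Cd86* were not among them. *Cd274*, which encodes the inhibitory ligand PD-L1, fell from 6.92 ± 0.612 to 4.59 ± 0.872 CPM (SD, n = 4, log2 fold change −0.60, FDR = 0.0273 by edgeR), with all KL-/- samples below all WT samples. *Icam1*, an adhesion molecule for T cells, was at 3.84 ± 1.24 and 3.78 ± 1.05 CPM (−0.037, FDR = 0.937), *Cd83* at −0.96 (FDR = 0.127) and *Cd40* at −0.094 (FDR = 0.865) on the log2 scale.

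After removal of genotype means, the 5 genes outside the members whose log2 CPM followed the class II mean most closely over the 8 samples were *Myh9* (Pearson's r = 0.992), *Lama2* (0.985), *St3gal1* (0.984), *Clec14a* (0.978) and *Prdm8* (0.977). Their log2 fold changes ranged from −1.03 for *Prdm8* (FDR = 0.0554 by edgeR) to 0.11 for *Clec14a* (FDR = 0.647). *Igf2bp2* (0.964), *Zxdb* (0.961), *Ptbp3* (0.960), *Ywhab* (0.960) and *Irgm1* (0.954) were most like the mean of *H2-D1*, *H2-K1* and *B2m*, and of these *Igf2bp2* fell (log2 fold change −1.11, SE 0.25, FDR = 0.0223). The genes were picked for these coefficients among all genes whose average log2 CPM was 0 or more, and no test was made.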
